A study of Mus musculus with 4 samples.

Results

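The genes described here are 35 transport genes of the thick ascending limb, the distal convoluted tubule, the connecting tubule and the collecting duct, with their regulators and with Cdh16 itself. They were chosen by name, as genes of the nephron segments where the Ksp-cadherin promoter acts, and all 35 were found among the 54078 features of the table. RNA-sequencing had been performed on kidneys of male adult mice at day 3 after bilateral ischemia-reperfusion (I/R), in which both renal pedicles are clamped and then released, here with 30 min of clamping. WT mice were Apela flox/flox littermates without Cre, and Apela Ksp KO (KO) mice were Apela flox/flox with Ksp-Cre, so both groups carried the floxed allele and both were injured. Each group had 2 libraries, and each library was a pool of RNA from 3 mice, so n = 2 pools throughout and single animals cannot be seen. The comparison was made by the study to look for altered pathways in the injured kidneys that lack tubular Apela, the gene of the peptide ELABELA. No uninjured kidney was analysed here, so the effect of the injury on these genes could not be measured. The strain is C57BL/6 x 129S4/SvJae in the labels and C57BL/6 in the methods of the study. The text that accompanies the series speaks of adipose tissue, while the labels name the kidney. Kidney transcripts were abundant in every pool, while of 6 adipocyte markers Ucp1 had no read in any pool and Adipoq, Plin1, Cfd and Lep had 0 to 27 reads. The remaining marker, Fabp4, was at 10.2 to 14.6 FPKM in the 4 pools.

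The distal nephron sets the final composition of urine. The thick ascending limb takes up sodium, potassium and chloride without water, which dilutes the tubular fluid and builds the medullary gradient. The distal convoluted tubule takes up sodium chloride under the control of the WNK kinases, and the connecting tubule and collecting duct fine-tune sodium through the epithelial sodium channel under aldosterone and water through aquaporins under vasopressin. Ksp-cadherin, the product of Cdh16, is an adhesion protein of these epithelia, and its promoter drives the Cre recombinase of the KO mice. The Cre is therefore expected in tubular cells and not in vessels, stroma or blood cells.

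The start regions of 4 members are shown because they carry short motifs known from the control of kidney or hormone-driven genes, and because each gene is followed below. They are the 250 bases before the RefSeq transcription start in GRCm38.p6, written 5′ to 3′ on the strand of the gene, and capitals mark the motif found. Position -1 is the base before the start. RefSeq held such a window for 26 of the 35 members.
Umod, chr7:119479263-119479512, minus strand: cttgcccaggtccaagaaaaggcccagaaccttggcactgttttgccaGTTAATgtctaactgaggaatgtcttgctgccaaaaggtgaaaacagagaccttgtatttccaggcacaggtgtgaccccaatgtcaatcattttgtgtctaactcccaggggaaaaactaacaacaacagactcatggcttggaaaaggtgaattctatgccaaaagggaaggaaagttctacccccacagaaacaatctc
Aqp2, chr15:99578806-99579055, plus strand: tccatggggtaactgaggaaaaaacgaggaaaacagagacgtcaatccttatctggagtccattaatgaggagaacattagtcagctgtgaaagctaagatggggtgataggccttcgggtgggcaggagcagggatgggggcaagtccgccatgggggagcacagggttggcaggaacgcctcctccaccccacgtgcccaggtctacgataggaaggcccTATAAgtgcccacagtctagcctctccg
Slc12a3, chr8:94328958-94329207, plus strand: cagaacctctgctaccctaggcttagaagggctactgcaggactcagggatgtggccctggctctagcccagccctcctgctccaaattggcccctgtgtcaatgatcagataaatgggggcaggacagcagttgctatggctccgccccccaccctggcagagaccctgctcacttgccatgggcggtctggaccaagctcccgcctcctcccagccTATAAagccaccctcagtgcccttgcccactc
Sgk1, chr10:21993640-21993889, plus strand: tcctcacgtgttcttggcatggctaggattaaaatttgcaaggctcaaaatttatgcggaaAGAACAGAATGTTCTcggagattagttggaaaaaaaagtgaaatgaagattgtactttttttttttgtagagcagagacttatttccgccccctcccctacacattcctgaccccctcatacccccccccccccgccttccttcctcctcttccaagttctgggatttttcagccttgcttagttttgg
The letters GTTAAT, the core of the motif of the nephron transcription factor HNF1, were found in the Umod window at -202 to -197. Searched on both strands, they occurred in 6.43% of the 32851 windows of all mouse genes, and Umod and Kcnj16 were the members that held them. The letters TATAA were at -28 to -24 in Aqp2 and at -32 to -28 in Slc12a3. They occurred in 22.8% of all windows and in 6 members, namely Aqp2, Aqp3, Avpr2, Kcnj16, Sgk1 and Slc12a3. The Sgk1 window, 1 of 6 for that gene and shown for its match, held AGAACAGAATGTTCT at -189 to -175, a form of the palindrome bound by the glucocorticoid and mineralocorticoid receptors. With its 3 middle bases left free, the palindrome was present in 3 of the 32851 windows (0.00913%). A match describes letters and not a site in use. Each of the 4 windows held the motif shown and no match to the others, so no matches overlap there.

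Between 16045724 and 16927742 reads per pool fell on genes. Values are FPKM, fragments (called reads here) per kilobase of gene length and per size of the library as scaled by the authors, and groups were tested by limma on log2(FPKM + 0.5). The 15414 genes whose FPKM averaged 0.5 or more were tested, and p-values were adjusted over all of them by the method of Benjamini and Hochberg (BH). Of the 35 members, 34 were tested and Avpr2 was below that filter. The targeted Apela was at 5.27 and 4.57 FPKM in WT and at 0.536 and 0.245 in KO pools, which fits the labels. Its log2 fold change, KO minus WT, was -2.62 (SE 0.22, BH-adjusted p = 0.466 in limma).

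No difference between KO and WT passed the threshold of an adjusted p of 0.05 for any member, in a comparison where 0 of all genes tested (0%) passed it. Adjusted p-values of the members ran from 0.785 to 0.999, and log2 fold changes, KO minus WT, from -0.31 in Pvalb to 0.62 in Slc14a2. At an unadjusted p under 0.05, 1 member (Slc14a2) was higher in KO, beside 3.29% of all genes tested, and 0 members were lower, beside 3.03%. Both KO pools lay above both WT pools in 3 of 34 members (Wnk4, Oxsr1 and Slc14a2), while 19.7% of all genes did so. Both KO pools lay below both WT pools in Cdh16 and Hsd11b2, 2 of 34, beside 18.1% of all genes. All of these member counts were below or near the share of all genes. By limma's voom on the recovered reads, 0 genes passed as well, with 970 at an unadjusted p under 0.05, against 974 in the limma fit on FPKM.

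The median log2 fold change of the 34 members was 0.10, with 22 above 0, and that of all genes tested was 0.0071, with 51.4% above 0. The sign of the members' median depended on which pools were used: leaving out WT replicate 1 gave 0.26 and leaving out WT replicate 2 gave -0.11. In the KO group, dropping replicate 1 gave 0.15 and dropping replicate 2 gave -0.011. The 95% interval of the log2 fold change stayed within -1 and 1 for 24 of the 34 members, so that a 2-fold change in either direction lay outside it. In the other 10, Slc14a2 among them, the interval reached past -1 or 1 and did not leave such a change out. The pools of a group are described as biological replicates, so p-values measure the spread between 4 pools and not between mice. An exact permutation of 2 against 2 pools cannot give a two-sided p under 0.333.

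**Figure D1:**
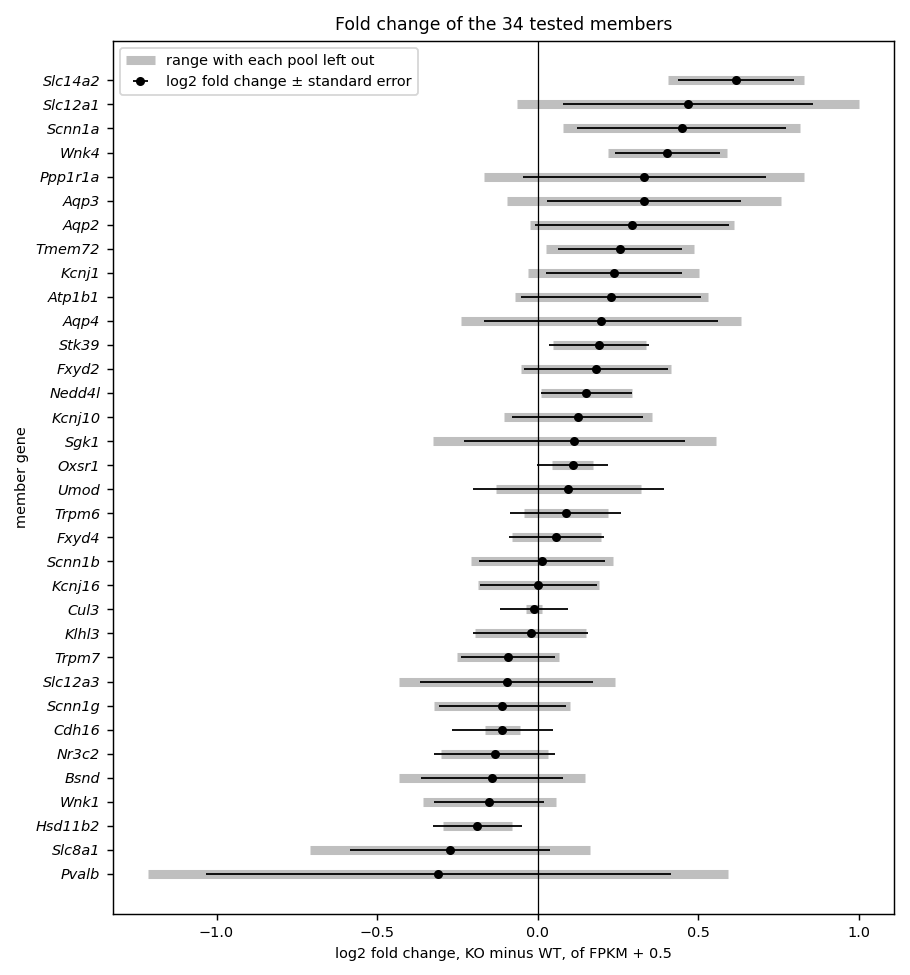
The log2 fold change of each tested member, KO minus WT, of FPKM + 0.5, is plotted as a point with its SE, and grey bars span the values with each pool left out in turn. The bar stays on 1 side of 0 for 9 of the 34 members, Slc14a2 at the top among them, while 51.1% of all genes tested kept their sign. The widest bar belongs to Pvalb at the bottom.

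Cdh16, whose promoter drives the Cre, was among the highest and most even members. It lies at chr8:104601911-104624396 on the minus strand and was at 279 and 267 FPKM in WT and at 262 and 243 in KO. The KO pools were the lower ones without overlap, by a log2 fold change of -0.11 (SE 0.16; 95% interval -0.53 to 0.30), a difference smaller than its error. Umod, the gene of uromodulin, the most abundant protein of normal urine and a product of the thick limb, had the highest FPKM of all members. It was 1079.8 and 788 in WT and 1133 and 858 in KO, so that each group had 1 high and 1 low pool and the groups overlapped almost fully (log2 fold change 0.096, SE 0.30).

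Slc12a1 (chr2:125152505-125230002, plus strand), the sodium-potassium-chloride cotransporter of the thick limb and the target of loop diuretics, was at 138 and 65.6 FPKM in WT and at 149 and 117 in KO. WT replicate 2 was far below the other 3 pools, and WT replicate 1 lay between the KO pools. The log2 fold change of 0.47 had a SE of 0.39 and became -0.065 without WT replicate 2 and 1.00 without WT replicate 1. Ppp1r1a, which encodes an inhibitor of protein phosphatase, had the same order of pools with 62.6 and 31.1 FPKM in WT and 65.6 and 47.3 in KO. Kcnj1, the ROMK potassium channel that recycles potassium into the lumen for Slc12a1, was at 39.0 and 26.8 in WT and at 36.3 and 40.3 in KO. Tmem72 was at 4.37 and 3.04 in WT and 4.25 and 4.69 in KO. In both genes WT replicate 2 was again the lowest pool and WT replicate 1 lay between the KO pools. Bsnd, which encodes barttin, differed from these in that KO replicate 1 was lowest, with 13.5 and 12.2 in WT and 9.39 and 14.3 in KO. The median log2 fold change of these 7 thick limb genes with Cdh16 was 0.24, and -0.13 without WT replicate 2.

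**Figure D2:**
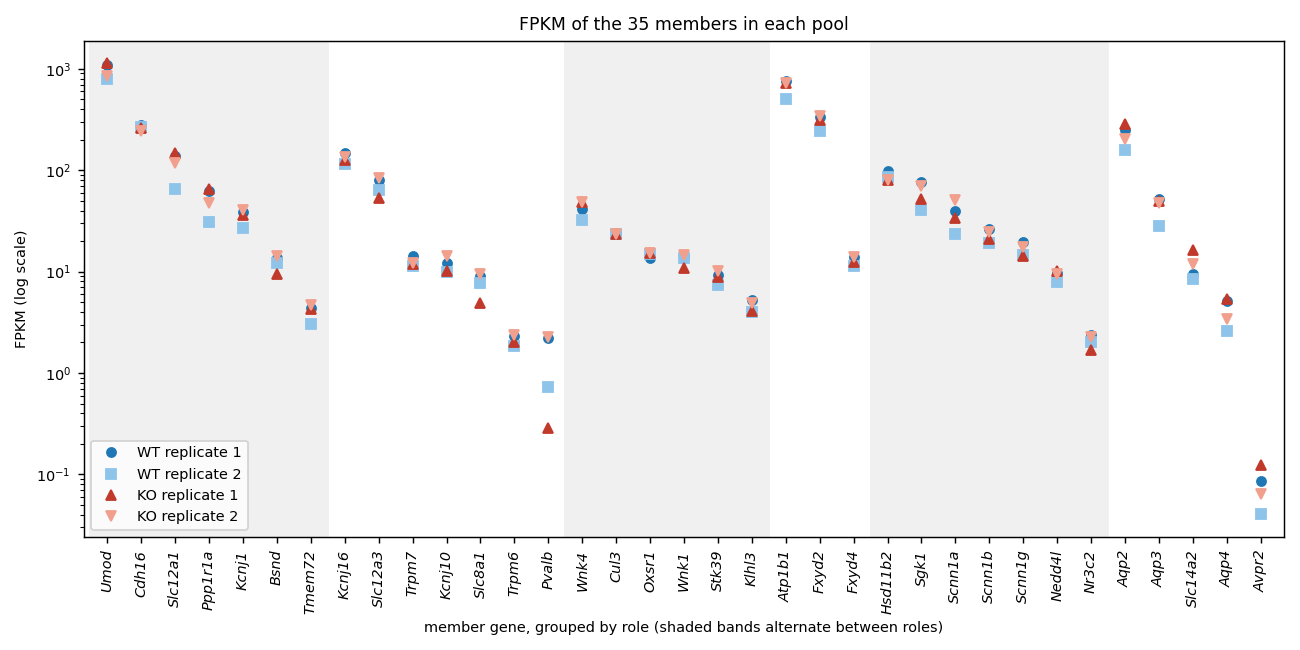
FPKM of each member (log scale) is plotted in the 4 pools, with members grouped by role from the thick limb on the left to water and urea channels on the right. Levels run from about 1000 FPKM for Umod to below 0.2 for Avpr2, and WT and KO symbols overlap for most genes while WT replicate 2 is often the lowest.

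Among the 7 genes of the distal convoluted tubule, the lowest pool was KO replicate 1 for 3 and WT replicate 2 for 4. Slc12a3 (chr8:94329201-94366214, plus strand), the thiazide-sensitive sodium-chloride cotransporter, was at 79.7 and 64.3 FPKM in WT and at 52.9 and 84.7 in KO. The KO pools thus held both the lowest and the highest value, and the log2 fold change was -0.096 (SE 0.27). Slc8a1, the sodium-calcium exchanger of the basolateral membrane, was at 9.01 and 7.71 in WT and at 4.91 and 9.38 in KO. Pvalb, the calcium-binding parvalbumin of the early distal convoluted tubule, had the widest range of all tested members, 2.21 and 0.726 FPKM in WT and 0.287 and 2.25 in KO. These values rest on 37, 13, 5 and 38 reads, and the exact Poisson 95% intervals, which cover counting error only, were 26.0 to 51.0 reads for WT replicate 1 and 6.92 to 22.2 for WT replicate 2, and 1.62 to 11.7 for KO replicate 1 and 26.9 to 52.2 for KO replicate 2. The intervals did not overlap within either group, and the difference between the groups (log2 fold change -0.31, SE 0.72) was smaller than the spread within them.

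The other 4 genes of this segment were lowest in WT replicate 2. Kcnj16 and Kcnj10 encode the subunits of the basolateral potassium channel that senses plasma potassium. Kcnj16 was at 148 and 114 FPKM in WT and 126 and 135 in KO, and Kcnj10 at 12.1 and 9.92 in WT and 10.1 and 14.1 in KO. Trpm6, the magnesium channel of the apical membrane, was at 2.29 and 1.83 in WT and 2.04 and 2.39 in KO. Its widely expressed relative Trpm7 was at 14.3 and 11.4 in WT and 11.8 and 12.2 in KO, and the ratio of Trpm7 to Trpm6 moved only between 5.09 and 6.24 over the pools. Log2 fold changes of the 4 genes ran from -0.092 in Trpm7 to 0.12 in Kcnj10.

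Wnk4 had the smallest unadjusted p of the members after Slc14a2. WNK4 is a kinase that, through SPAK and OSR1, sets the phosphorylation of the sodium-chloride cotransporter. Wnk4 (ENSMUSG00000035112, chr11:101260567-101277409, plus strand) was at 41.8 and 32.2 FPKM in WT and at 48.9 and 48.5 in KO. Both KO pools were nearly identical and lay above both WT pools, with a log2 fold change of 0.40 (SE 0.16, unadjusted p = 0.0600, BH-adjusted p = 0.786 in limma). Leaving out single pools gave 0.22 to 0.59. In GENCODE M21, 7.38% of its exon bases overlap Gm11615 on the opposite strand. The labels describe no step that marks the strand of a read. Exons of another gene overlapped 7 members, and by a larger share than in Wnk4 for Umod (19.5%, Gm44588), Atp1b1 (18.7%, Nme7) and Avpr2.

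The other genes of the WNK pathway differed less between the groups. Stk39, which encodes SPAK, was at 9.18 and 7.41 FPKM in WT and 8.83 and 10.2 in KO, and Oxsr1, which encodes its relative OSR1, at 13.5 and 14.8 in WT and 15.2 and 15.3 in KO. Oxsr1 was the 1 member with WT replicate 2 above WT replicate 1, and its groups did not overlap, at a log2 fold change of 0.11 (SE 0.11). Wnk1, which encodes the kinase upstream of both, was at 14.1 and 13.7 in WT and 10.8 and 14.5 in KO. Klhl3 and Cul3 encode the adaptor and the scaffold of the ubiquitin ligase that marks WNK kinases for degradation. Klhl3 was at 5.23 and 4.01 in WT and 4.11 and 4.95 in KO. Cul3 had the narrowest range of all members, 24.1 and 23.3 in WT and 23.5 and 23.5 in KO, with its highest pool 1.04 times its lowest.

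The sodium pump drives all of this transport from the basolateral membrane. Atp1b1, its beta subunit, was at 763 and 503 FPKM in WT and 724 and 728 in KO. The FXYD proteins adjust the pump, and Fxyd2, the gamma subunit, was at 336 and 243 in WT and 309.6 and 339 in KO, while Fxyd4, the collecting duct form, was at 14.0 and 11.4 in WT and 12.4 and 14.0 in KO. All 3 genes had their lowest value in WT replicate 2, and the ratio of Fxyd2 to Fxyd4 varied only from 21.2 to 24.97. Their log2 fold changes were 0.23, 0.18 and 0.058, and the first 2 became -0.072 and -0.052 without WT replicate 2. The level of Fxyd2 depends on the length used: its table length of 4005 bases joins all exons, while its longest coding transcript has 684, and per base of the latter Fxyd2 ranked 1 instead of 3 among the 30 members whose table length could be checked. Slc12a3 moved in the same way from rank 9 to 6 and Wnk1 from 20 to 16, and fold changes are not touched by this.

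The epithelial sodium channel is the aldosterone-controlled step of sodium uptake and is built of 3 subunits. Scnn1a, its alpha subunit, was at 39.5 and 23.5 FPKM in WT and 34.1 and 51.0 in KO. KO replicate 2 was its highest and WT replicate 2 its lowest pool, WT replicate 1 lay between the KO pools, and the log2 fold change was 0.45 (SE 0.33; 95% interval -0.41 to 1.31). Scnn1b, the beta subunit, was at 26.3 and 19.2 in WT and 20.8 and 24.7 in KO. Scnn1g, the gamma subunit, was at 19.8 and 14.6 in WT and 14.2 and 17.5 in KO. The beta and gamma genes are neighbours, 96.6 kb apart on the plus strand of chromosome 7. The ratio of the beta to the gamma subunit was 1.328 and 1.312 in WT and 1.469 and 1.417 in KO. The ratio of the alpha to the beta subunit was less even, 1.503 and 1.222 in WT and 1.64 and 2.06 in KO. That of the alpha to the gamma subunit was 1.996 and 1.603 in WT and 2.409 and 2.922 in KO. Each of these ratios was higher in both KO pools than in both WT pools. The alpha to beta ratio was chosen after its values were seen, and no ratio was tested.

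The genes that carry the aldosterone signal showed no shared direction. Nr3c2, the mineralocorticoid receptor, was at 2.38 and 2.02 FPKM in WT and 1.69 and 2.25 in KO. Sgk1 is the kinase that aldosterone induces and that restrains the ubiquitin ligase encoded by Nedd4l. Sgk1 was at 75.7 and 40.9 in WT and 51.6 and 70.4 in KO, so that the groups overlapped fully, with both KO pools between the WT pools. Nedd4l was at 9.76 and 7.93 in WT and 10.2 and 9.51 in KO, with WT replicate 1 between the KO pools. Hsd11b2, the enzyme that inactivates glucocorticoids and so keeps the mineralocorticoid receptor for aldosterone, was at 98.8 and 85.1 in WT and 80.8 and 80.1 in KO. Both KO pools of Hsd11b2 were below both WT pools, at a log2 fold change of -0.19 (SE 0.14, BH-adjusted p = 0.831 in limma). The median of these 7 genes of the sodium channel and the aldosterone response was 0.014.

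Slc14a2 had the largest log2 fold change of the members. It encodes the UT-A urea transporters, which carry urea across the inner medullary collecting duct and the thin limb and support the concentration of urine. Slc14a2 (ENSMUSG00000024552, chromosome 18, minus strand) was at 9.41 and 8.39 FPKM in WT and at 16.2 and 11.9 in KO. The KO pools both exceeded the WT pools, and KO replicate 1 stood well above the other 3 pools. The log2 fold change was 0.62 (SE 0.18; 95% interval 0.14 to 1.09), with an unadjusted p of 0.0214 and a BH-adjusted p of 0.785 in limma. Over all alternatives the adjusted p ranged from 0.446 to 0.992 and leaving out single pools gave fold changes of 0.41 to 0.83 on the log2 scale. Without KO replicate 1 the unadjusted p was 0.0799, and without WT replicate 2 it was 0.0940. The table length of this gene, as of Aqp4, Nedd4l, Slc8a1 and Trpm6, differed from the M21 exon length, so that its level relative to other genes is less certain than its fold change.

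In Aqp2 and Aqp4 the pools fell in the order KO replicate 1, WT replicate 1, KO replicate 2 and WT replicate 2, as they did in Umod, Slc12a1, Ppp1r1a and Nedd4l. Aqp2, the vasopressin-regulated water channel of the apical membrane, was at 247 and 159 FPKM in WT and 289 and 204 in KO. Aqp4, a basolateral water channel of the same cells, was at 5.12 and 2.57 in WT and 5.33 and 3.39 in KO. Replicate 1 was above replicate 2 in each group for both genes, by more than the groups differed (log2 fold changes 0.29 with SE 0.30 and 0.20 with SE 0.36). Aqp3, the main basolateral water channel, was at 51.7 and 28.4 in WT and 49.7 and 47.0 in KO, so that WT replicate 2 alone stood apart. The ratio of Aqp2 to Aqp3 was between 4.34 and 5.81 in the 4 pools. Avpr2, the vasopressin receptor, had 4 and 2 reads in WT and 6 and 3 in KO, at or near the detection limit of 3 reads, and 81.3% of its exon bases overlap Arhgap4 on the opposite strand, so no difference was read from it.

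A difference between the WT pools ran through nearly all of these genes. WT replicate 2 was below WT replicate 1 in 33 of the 34 tested members, all but Oxsr1, while it was below in 50.7% of all genes tested. WT replicate 2 was the lowest of the 4 pools in 24 members (70.6%) and the highest in 0, against 30.7% and 29.1% of all genes. The factor between the WT pools was 3.05 in Pvalb, on few reads, 2.10 in Slc12a1, 2.01 in Ppp1r1a, 1.99 in Aqp4, 1.85 in Sgk1 and 1.82 in Aqp3, and it was 1.04 in Cdh16 and in Cul3 and 1.03 in Wnk1. In the KO group, replicate 1 was below replicate 2 in 23 members, beside 50.7% of all genes. KO replicate 1 was the lowest pool in 7 members (Bsnd, Slc12a3, Pvalb, Slc8a1, Wnk1, Scnn1g and Nr3c2), 20.6% beside 23.3% of all genes.

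**Figure D3:**
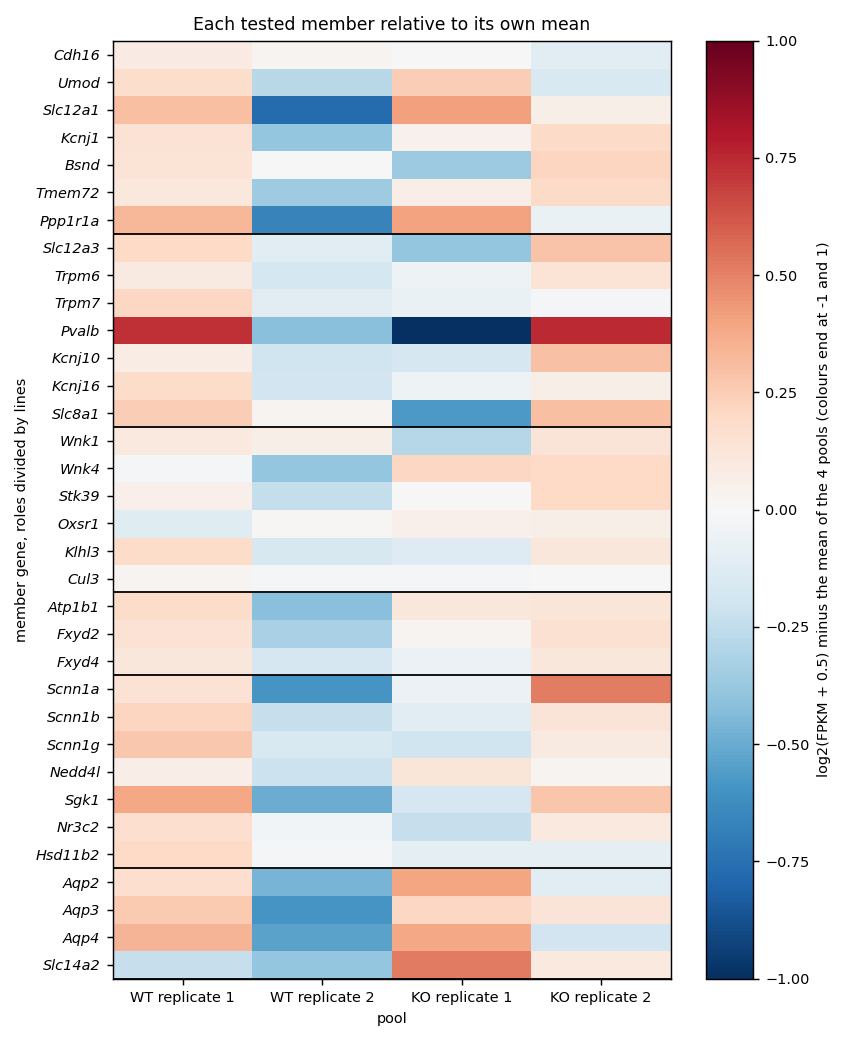
For each tested member, colour gives log2(FPKM + 0.5) in a pool minus its mean over the 4 pools, blue for lower and red for higher, with lines between the roles. The WT replicate 2 column is blue in most rows, and the KO replicate 1 column is blue for Slc12a3, Pvalb and Slc8a1 and red for Slc12a1, Aqp2 and Slc14a2.

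Markers of other cell types differed in where WT replicate 2 stood. This pool was the highest in 29.1% of all genes, in 5 of 8 tubular injury markers, and in 1 of 8 endothelial and 1 of 6 podocyte markers. The summed FPKM of 8 macrophage markers was 205 and 480 in WT and 260 and 230 in KO, and 7 of the 8 were highest in WT replicate 2. That of 8 fibroblast and matrix markers was 183 and 376 in WT and 229.8 and 313 in KO, again with 7 of 8 highest in WT replicate 2. Havcr1, the injury marker of the proximal tubule, was at 210 and 393 FPKM in WT and 248.7 and 105 in KO. The sum of 10 proximal tubule markers was 11130 and 6005 in WT and 7453 and 11130 in KO. Most of that sum was the single gene Kap (8976 and 4387 in WT, 6038 and 9316 in KO), and by gene 5 of the 10 were lowest in WT replicate 2 and 5 in KO replicate 1. None of the macrophage markers was at 0 in any pool. Of 8 tubular injury markers, 3 had a log2 fold change above 0 and 5 below (median -0.20). At an unadjusted p under 0.05, 3.29% of all genes tested were higher in KO and 3.03% lower. Of the injury markers, Lcn2 and Krt20 were higher at that threshold and Vcam1 lower, and in these 3 the groups did not overlap. Lcn2, which distal tubule cells can make, was at 133 and 95.2 FPKM in WT and 248.99 and 273 in KO (log2 fold change 1.21, SE 0.21, BH-adjusted p = 0.613 in limma). Krt20 was at 35.6 and 36.8 in WT and 59.97 and 61.0 in KO (0.73 on the log2 scale), and Vcam1 at 14.6 and 31.0 in WT and 10.5 and 2.59 in KO (-1.91). The sum of 8 endothelial markers was 66.2 and 83.2 in WT and 79.95 and 99.5 in KO. Both KO pools lay above both WT pools in 4 of the 8, beside 19.7% of all genes. All 8 log2 fold changes were above 0 (median 0.26), and 1, Flt1, was higher at an unadjusted p under 0.05. Of the proximal tubule markers, 7 of 10 were below 0 (median -0.22) and 2, Lrp2 and Slc5a2, were lower at an unadjusted p under 0.05. Below 0 were also 7 of the 8 macrophage markers, with 0 at an unadjusted p under 0.05 in limma, and 5 of the 8 fibroblast and matrix markers, with 1, Dcn, lower. In bulk RNA, fewer cells of a type and less RNA per cell cannot be told apart, and the part of these cell types and of injury in the members' values was not tested.

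**Figure D4:**
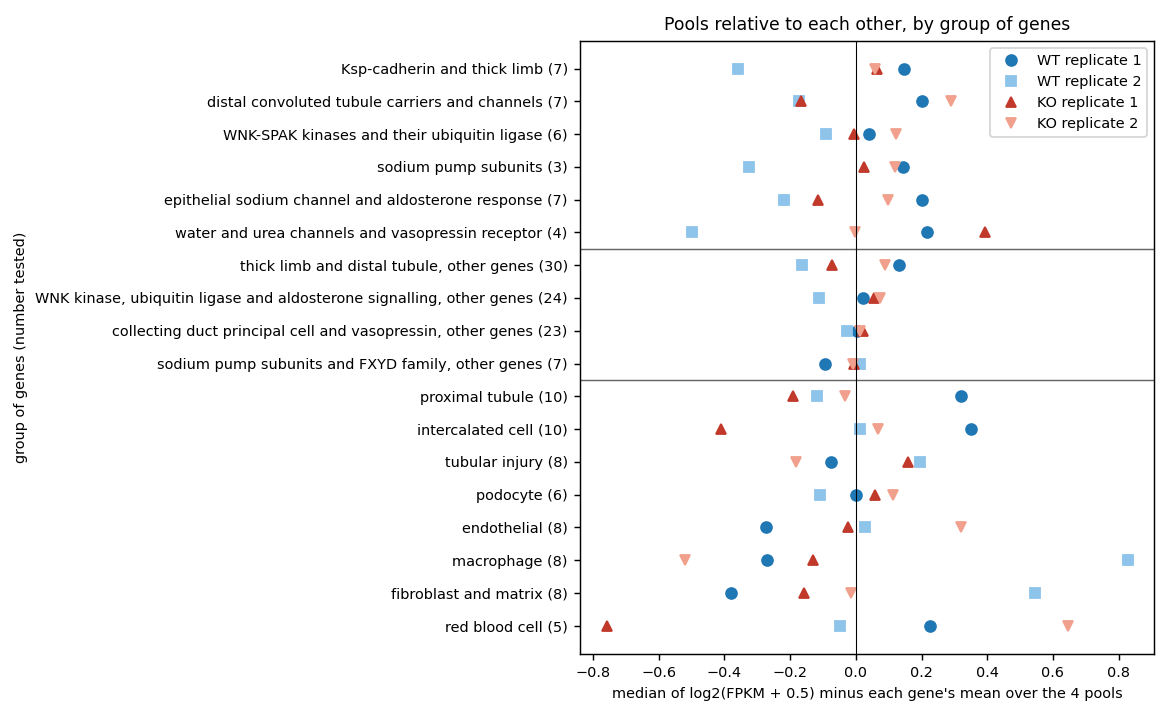
For each group of genes, the median over its tested genes of log2(FPKM + 0.5) minus each gene's mean over the pools is plotted by pool, for the roles of the members (top), the other genes of the pathways (middle) and cell type markers (bottom). WT replicate 2 lies to the left in all 6 roles and to the right for macrophage and for fibroblast and matrix markers.

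Further genes of the same pathways, taken from 4 lists, held 0 genes at an adjusted p under 0.05 by limma. Of all genes tested, 3.03% were lower at an unadjusted p under 0.05. Among 30 tested thick limb and distal genes, 1 was lower at that threshold. This was Cnnm2, a magnesium transport gene of the distal tubule, at 14.2 and 14.5 FPKM in WT and 10.6 and 11.2 in KO (log2 fold change -0.38, SE 0.11, BH-adjusted p = 0.764 in limma). Both KO pools of Cnnm2 lay below both WT pools.

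At an unadjusted p under 0.05, 3.29% of all genes tested were higher in KO and 3.03% lower. Among 24 tested genes of WNK and aldosterone signalling, 2 were higher and 0 lower at that threshold. These were Zbtb16 and Fkbp5, which glucocorticoids are known to induce, as they do Tsc22d3, Per1 and Klf9 of the same list, whose groups overlapped (log2 fold changes 0.12, 0.15 and 0.31). Zbtb16 was at 4.97 and 3.08 FPKM in WT and 7.99 and 7.82 in KO, a log2 fold change of 0.93 (SE 0.23, BH-adjusted p = 0.742 in limma). Fkbp5 was at 44.2 and 24.9 in WT and 72.6 and 58.9 in KO, a log2 fold change of 0.97 (SE 0.31, BH-adjusted p = 0.785). Sgk1, which the same hormones induce and whose start region is printed above, did not share this order of pools. Among 23 tested principal cell and vasopressin genes, 1 was higher, Prkar2a, a regulatory subunit of protein kinase A, at 15.4 and 14.7 in WT and 18.9 and 19.0 in KO. Stc1, the gene of the hormone stanniocalcin, was at 1.62 and 1.54 in WT and 1.15 and 0.690 in KO, with an unadjusted p of 0.0629. Of 7 tested pump and FXYD genes, 0 passed an unadjusted p under 0.05. The smallest p-values there were 0.101 for both Atp1b2, at a log2 fold change of 0.33, and Fxyd1, at -0.40.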

How the data were processed

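A deposited file gave FPKM and gene lengths for the 4 libraries, as computed by the authors. The submitters' processing notes name HISAT2 2.0.5 and the builds mm10 and GRCm38.p6, and the counting tool is not given in the sources used here. Of 53620 genes shared with GENCODE M21, 97.1% had identical coordinates. FPKM times length gave whole reads for 100% of nonzero values, within 0.01 of a read, and these reads gave the depth and voom weights. The deposited FPKM are not counts, so limma 3.58.1 in R 4.3.3 was used (lmFit, eBayes with trend; prior degrees of freedom 2.62; pseudocount 0.5; mean FPKM of at least 0.5; two-sided, no covariates). Such fold changes understate the change of low genes. Other steps used Python 3.11.15 with pandas 2.3.3. The members and lists were chosen with earlier results of these data known. All 35 members were named, with Apela and the 2 genes of smallest p in each of 4 further pathway lists, and 1 of these genes is not reported here. The alternatives changed the pseudocount (0.1 and 1), the filter (none, or a mean of 1 FPKM), the normalization (quantile), the trend (none) and the model or genes (replicate block, voom weights, protein-coding genes only), or left out each pool in turn, where the lone pool of a group is assumed to vary like the others.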

Additional observations from a re-analysis of the deposited data

How the results depend on the processing

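The number of genes at an adjusted p under 0.05 was 0 by limma under all 13 alternatives. The members' median log2 fold change, 0.10, ran from -0.11 to 0.26 with each pool left out, and the number of members at an unadjusted p under 0.05, 1, ran from 0 to 7. It was 7 without WT replicate 1, 2 without KO replicate 2 (Slc14a2 and Slc8a1), and 0 without WT replicate 2 or without KO replicate 1. Of the 306 member values under the 9 alternatives that kept all pools, 304 kept their direction, and with quantile normalization Kcnj16 became -0.093 and Scnn1b -0.035. The correlation of deviations between pools with the same number in the labels was -0.0017. As each group had 2 pools, this value cannot tell whether such pools were paired, and pairing was not tested further. Under the replicate block the median was 0.10, 1 member had an unadjusted p under 0.05, and no call changed. With each pool left out in turn, 9 of 34 members kept their sign, beside 51.1% of all genes tested. The other 25 changed sign, and the cause was not tested. Their log2 fold changes ran from -0.13 to 0.32 for Umod, -0.065 to 1.00 for Slc12a1, -0.029 to 0.50 for Kcnj1, -0.43 to 0.15 for Bsnd, -0.17 to 0.83 for Ppp1r1a, -0.43 to 0.24 for Slc12a3, -0.044 to 0.22 for Trpm6, -0.25 to 0.067 for Trpm7, -1.21 to 0.59 for Pvalb, -0.11 to 0.35 for Kcnj10, -0.19 to 0.19 for Kcnj16, -0.71 to 0.16 for Slc8a1, -0.36 to 0.057 for Wnk1, -0.20 to 0.15 for Klhl3, -0.037 to 0.014 for Cul3, -0.072 to 0.53 for Atp1b1, -0.052 to 0.41 for Fxyd2, -0.081 to 0.20 for Fxyd4, -0.21 to 0.24 for Scnn1b, -0.32 to 0.10 for Scnn1g, -0.33 to 0.55 for Sgk1, -0.30 to 0.031 for Nr3c2, -0.023 to 0.61 for Aqp2, -0.10 to 0.76 for Aqp3 and -0.24 to 0.63 for Aqp4. With 2 to 6 reads per pool, the depth did not allow a comparison of Avpr2.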

Other observations

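Intercalated cells are the acid-base cells that lie between the principal cells of the collecting duct. The summed FPKM of 10 of their markers was 146 and 111 in WT and 89.9 and 122 in KO. KO replicate 1 was the lowest pool in 6 of the 10, beside 23.3% of all genes. As in most of the 35 genes, WT replicate 2 was below WT replicate 1, in all 10 markers, and KO replicate 1 below KO replicate 2, in 9. Their median log2 fold change was -0.39, with 8 of 10 below 0 and 0 at an adjusted p under 0.05 by limma. At an unadjusted p under 0.05, 1 marker, Aqp6, was lower, beside 3.03% of all genes. Leaving out KO replicate 1 gave -0.098, and leaving out KO replicate 2 gave -0.61. Of the 30 other thick limb and distal genes tested, 15 were lowest in KO replicate 1, beside 23.3% of all genes. In WT replicate 2, 12 of them were lowest, beside 30.7% of all genes. Calb1, the gene of the calcium buffer calbindin, and Egf, the gene of epidermal growth factor, had their lowest value in KO replicate 1 as Slc12a3 and Pvalb did. Calb1 was at 37.8 and 20.8 FPKM in WT and 16.1 and 43.2 in KO, and Egf at 26.8 and 12.6 in WT and 9.52 and 29.5 in KO. Other genes of that list had other orders: S100g, the gene of a smaller calbindin, was highest in KO replicate 1, with 357 and 156 in WT and 599 and 351 in KO, and Trpv5, an apical calcium channel, was lowest in KO replicate 2, with 15.0 and 15.5 in WT and 14.8 and 10.3 in KO.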
